A study of Mus musculus with 4 samples.

Results

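Peptide YY (Pyy) cells of mouse lung tumours were taken as epithelial cells holding at least 5 unique molecules (UMIs, each 1 counted transcript) of Pyy. A barcode entered with at least 2000 UMIs and at most 20% mitochondrial UMIs. It was epithelial with at least 2 UMIs summed over Epcam, Cdh1, Krt8, Krt18 and Cldn18 and none of Ptprc, Cdh5 or Col1a2, which mark leukocytes, endothelium and fibroblasts. The cells were thus chosen by measured UMIs of Pyy and of those 8 other genes. The rule found 186 Pyy cells among 15189 epithelial cells, 27399 cells past the filters and 29367 barcodes in all. They were compared with the 14728 epithelial cells without a Pyy UMI, here called Pyy-negative cells, always within a library. The rule used Pyy, so the Pyy levels below are a description. A name that says more than Pyy mRNA in an epithelial cell was not checked here, since peptide was not measured.

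The alleles shared by the mice of all 4 libraries include p53frt, Rosa-FSF-CreERT2 and Hnf4aflox. Tumours were started by adenoviral FlpO under the mSPC (surfactant protein C) promoter, given by intubation, so recombination is driven in SPC-expressing lung cells. Tamoxifen, which activates CreERT2, or vehicle followed 10 weeks later, and tumour cells were collected 2 weeks after that. The vehicle is named corn oil in one label and ethanol in another. Each suspension gave a library before and a library after bead depletion of CD45+ and CD31+ cells, so the 4 single-cell 3′ libraries stand for 2 suspensions. The labels used here give neither the age of the mice nor the number of animals or tumours behind a suspension. There was 1 library per group, so no test of a difference between groups was possible and every interval covers counting error only (95%, exact).

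Library totals ran from 92644997 to 144994771 UMIs. Hnf4a, the floxed gene, had a level in Pyy-negative cells of 51.9 and 54.3 CPM in the vehicle libraries before and after depletion. CPM are a gene's UMIs scaled to the total UMIs of the cells summed. The libraries labelled tamoxifen gave 79.8 and 79.0 CPM. The level was not lower under tamoxifen, and 3′ counts need not fall within the floxed segment, so these values do not check the labels. The treated libraries are therefore called tamoxifen-labelled. Pairs of libraries shared 9 to 16 barcodes, none of them a Pyy cell in either. A doublet score above 0.25 marked 4 of the 186 cells, 1 in vehicle and 3 in tamoxifen-labelled tumours after depletion.

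Pyy encodes a peptide of the neuropeptide Y family that enteroendocrine L cells of the distal gut release after meals, usually together with the proglucagon peptides encoded by Gcg. Such cells are specified by transcription factors including Neurog3, Neurod1 and Insm1. They store hormone in dense-core granules built with chromogranins and secretogranins, where prohormone convertases, carboxypeptidase E (Cpe) and Pam process the precursor. In the lung, the resident endocrine cells are the neuroendocrine cells of the airways. Alveolar type 2 cells make surfactant and are a cell of origin of lung adenocarcinoma.

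Pyy (ENSMUSG00000017311) lies at chr11:102106676-102107832 on the minus strand (mm10, GENCODE M21). Gzme, which codes for granzyme E, a serine protease known from cytotoxic lymphocytes, lies on chromosome 14 in a cluster of granzyme and mast cell protease genes. The 250 bases before the transcription start of Pyy and of 3 genes of that cluster that were higher in Pyy cells (Gzme, Mcpt1 and Mcpt8) are printed to show what the starts of genes that moved together hold in common. They are RefSeq sequences on GRCm38.p6, at chr11:102107833-102108082 (minus), chr14:56120626-56120875 (minus), chr14:56017714-56017963 (plus) and chr14:56085198-56085447 (minus), in that order, and RefSeq starts can differ from those of GENCODE. Capitals mark matches on either strand to any of 6 motifs: TATAA (TATA box core), TGANTCA (AP-1), CAAAGTCCA (HNF4), TGTTTAC (FOX), CAAGTG (NKX2 core) and ATCAAT (ONECUT core).
Pyy: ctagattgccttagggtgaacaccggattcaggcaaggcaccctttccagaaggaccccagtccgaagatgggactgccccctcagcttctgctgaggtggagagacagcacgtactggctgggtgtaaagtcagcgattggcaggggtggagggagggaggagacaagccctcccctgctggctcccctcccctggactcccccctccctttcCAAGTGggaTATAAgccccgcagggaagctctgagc
Gzme: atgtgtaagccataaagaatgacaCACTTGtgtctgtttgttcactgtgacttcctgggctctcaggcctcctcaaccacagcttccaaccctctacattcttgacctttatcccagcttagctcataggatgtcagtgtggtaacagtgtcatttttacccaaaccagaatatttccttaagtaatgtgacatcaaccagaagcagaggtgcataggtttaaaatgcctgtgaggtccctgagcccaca
Mcpt1: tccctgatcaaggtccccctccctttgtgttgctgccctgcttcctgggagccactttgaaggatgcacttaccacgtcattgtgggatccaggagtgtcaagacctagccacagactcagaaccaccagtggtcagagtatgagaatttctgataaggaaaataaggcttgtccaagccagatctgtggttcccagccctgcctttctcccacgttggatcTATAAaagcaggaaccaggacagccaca
Mcpt8: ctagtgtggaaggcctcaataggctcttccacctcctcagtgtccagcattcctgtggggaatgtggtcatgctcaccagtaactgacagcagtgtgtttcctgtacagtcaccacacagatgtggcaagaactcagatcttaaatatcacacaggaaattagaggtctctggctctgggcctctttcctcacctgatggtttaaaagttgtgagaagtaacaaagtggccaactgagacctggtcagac
Pyy held TATAA beginning 27 bases before its start and CAAGTG beginning 36 bases before it. Mcpt1 held TATAA at 28 bases, Gzme held the NKX2 core at 226 bases on the opposite strand, and Mcpt8 held none of the 6. No motif was found in all 4. TATAA was in 22.8% and the NKX2 core in 11.6% of 32851 RefSeq stretches of this length. AP-1 was in 6.75%, ONECUT in 6.72%, FOX in 3.17% and HNF4 in 0.384% of them, and none of these was in the 4 printed here. A match is a run of letters and not a binding site.

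Pyy cells were rare, and a larger share of the tamoxifen-labelled epithelium. They numbered 4 of 872 epithelial cells in vehicle tumours before depletion, or 0.459% (0.125 to 1.17), and 26 of 6357 after it, or 0.409% (0.267 to 0.599). In tamoxifen-labelled tumours they numbered 13 of 922 before depletion, or 1.41% (0.753 to 2.40), and 143 of 7038 after it, or 2.03% (1.72 to 2.39). The counting intervals after depletion did not overlap, but each side is 1 suspension, so the difference between mice was not tested. Pyy cells were sequenced more deeply than Pyy-negative cells. Their median UMIs were 59473, 24571.5, 47790 and 21592 in the order above, against 22824, 18521.5, 25544 and 16773. With every cell thinned to 5000 UMIs, the share holding at least 2 Pyy UMIs was 0.246%, 0.364%, 1.13% and 1.96%, in the same order of libraries.

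**Figure D1:**
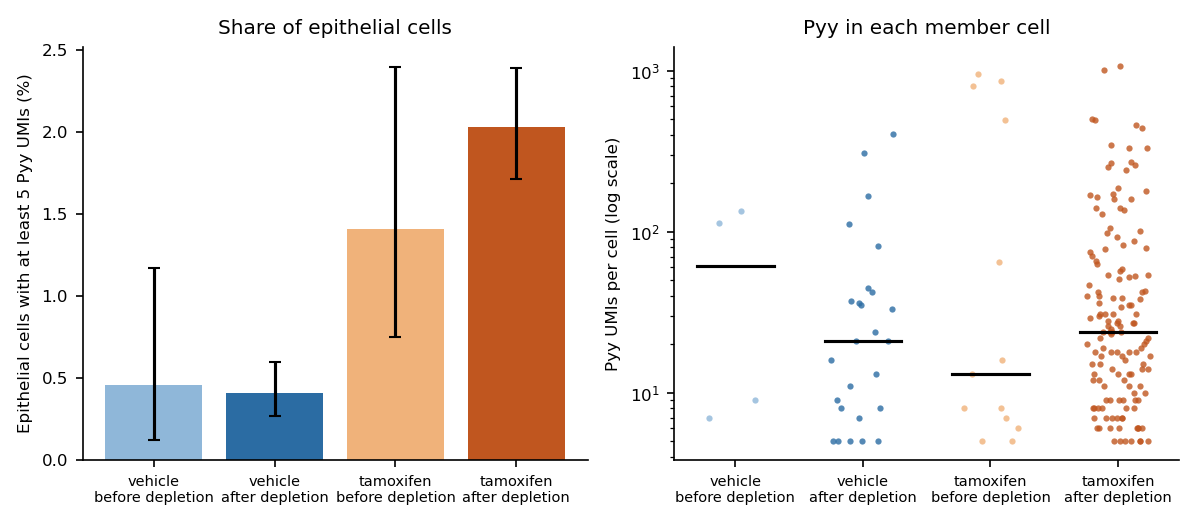
Left, percent of epithelial cells with at least 5 Pyy UMIs in each library, with exact 95% counting intervals. Right, Pyy UMIs of every such cell on a log scale, each point 1 cell and each line a library's median. The share is 0.409% in vehicle and 2.03% in tamoxifen-labelled tumours after depletion, and single cells reach 1072 UMIs.

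Among the cells the rule chose, Pyy covered a wide range. The highest cell held 135, 406, 959 and 1072 Pyy UMIs in the 4 libraries, and the median cell 61, 21, 13 and 24. Summed over the cells, Pyy stood at 1238 CPM in vehicle before depletion, 2374 CPM in vehicle after, 4618 CPM in tamoxifen-labelled before and 3313 CPM in tamoxifen-labelled after. These few cells held 97.1%, 95.3%, 99.7% and 97.5% of all epithelial Pyy UMIs. The 5 cells with most Pyy held 69.9% of it in vehicle and 30.9% in tamoxifen-labelled tumours after depletion. At the threshold, 14 cells lay just inside with exactly 5 UMIs (0, 5, 2 and 7 by library) and 14 just outside with 4 (1, 3, 0 and 10).

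Cells of leukocyte and endothelial type held few Pyy UMIs. No leukocyte-type cell (Ptprc-positive with at most 1 epithelial UMI) and no endothelial-type cell reached 5 Pyy UMIs in any library. At least 1 Pyy UMI was held before depletion by 1 of 3587 leukocyte-type cells in vehicle tumours and by 11 of 2459 in tamoxifen-labelled tumours, and after depletion by 2 of 97 endothelial-type cells in tamoxifen-labelled tumours. The 12 cells outside the epithelial gate with at least 5 Pyy UMIs (2, 2, 6 and 2 by library) all carried at least 2 epithelial UMIs together with Ptprc, Cdh5 or Col1a2. Summed over all cells outside the gate, Pyy was at 7.72, 6.19, 14.8 and 9.97 CPM by library. In epithelial cells it was at 11.4, 11.4, 121 and 85.1 CPM. Leukocyte-type cells before depletion were shallower, with medians of 6321 and 6748 UMIs against 22980.5 and 25933.5 in epithelial cells.

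Most endocrine genes were not detected at a level that could be compared. Of 76 genes in lists of peptide hormones, endocrine transcription factors and granule genes, 34 had no UMI in any of the 186 cells. Among those 34 were Chga (chromogranin A), Syp (synaptophysin), Gcg, Cck, Sct, Gip, Sst, Nts, Insl5 and Ppy. The regulators Neurog3, Neurod1, Insm1, Pax6, Isl1, Nkx2-2 and Fev were among them too. Only 9 of the 76 reached 20 CPM in Pyy or Pyy-negative cells of both libraries that had at least 20 Pyy cells, those after depletion. A gene was called apart, higher or lower, when its ratio in both of these libraries also reached 2-fold with a single sign (pseudocount 1 CPM). On that rule 2 of the 76 were higher (Cpe and Ptprn) and 2 lower (Ddc and Ghrl). Of the 9 that could be called this is 22.2% in each direction, while over all genes 299 of 6840 considered were higher (4.37%) and 325 lower (4.75%). Higher genes were 47.9% of those apart, and 35.1% (215 higher, 398 lower) when libraries were rescaled by TMM, which moved the median of all genes from 0.12 and 0.14 to -0.06 and 0.01. The 9 had a median log2 ratio of 0.27 in vehicle and 0.75 in tamoxifen-labelled tumours, beside 0.12 and 0.14 over all genes considered. Summed, all 76 were at 2316, 1424, 1530 and 1924 CPM in Pyy cells by library. In Pyy-negative cells they were at 990, 1050, 1232 and 1226 CPM, lower in each library. Granule genes made up 1482, 890, 888 and 1038 CPM against 463, 487, 532 and 545 CPM. The hormone and transcription factor lists were higher in Pyy cells of some libraries and lower in others.

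Few Pyy cells held a UMI of the narrower endocrine gene sets counted here, which leave out Cpe, Ptprn, Npy and Ghrl. Some endocrine genes outside these sets were in many Pyy cells. After depletion Ptprn had a UMI in 19 of 26 vehicle and 128 of 143 tamoxifen-labelled Pyy cells. Cpe had a UMI in 9 and 91 of these cells. A UMI of any of 11 core endocrine transcription factors was found in 2 of 186 Pyy cells (1.08%) and in 108 of 14728 Pyy-negative cells (0.733%). Gut hormones other than Npy and Ghrl had a UMI in 0 of 186, which allows a share of cells with a UMI of up to 1.61% by 3 counts (exact upper bound 1.96%), against 1.02% of Pyy-negative cells. After thinning to 5000 UMIs, 9 granule genes without Cpe and Ptprn were seen in 3 of 183 Pyy cells (1.64%) and in 0.613% of Pyy-negative cells. No Pyy cell held 3 or more of 10 neuroendocrine markers, and only 2 cells of the whole epithelium did, both in the tamoxifen-labelled library after depletion. Of these 2 cells 1 held a Pyy UMI but fewer than 5. At this depth a low level of these genes was not detectable.

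Some genes of hormone processing and storage were present. Cpe, which trims prohormone peptides, stood at 152 CPM in Pyy cells against 17.0 CPM in Pyy-negative cells of vehicle tumours after depletion. In the tamoxifen-labelled library after depletion it stood at 230 against 55.4 CPM. Before depletion it was at 399 against 12.3 CPM in vehicle, 98.8% of it from 1 of the 4 cells, and at 236 against 39.6 CPM in tamoxifen-labelled tumours. It was higher in all 4 libraries, with log2 ratios of 3.09 and 2.03 after depletion. In vehicle after depletion, 9 of 26 cells carried its 94 UMIs and a single cell 40.4% of them. Ptprn, a membrane protein of dense-core granules, was at 105 against 49.7 CPM in vehicle and 244 against 87.2 CPM in tamoxifen-labelled tumours after depletion. Its log2 ratios of 1.07 and 1.47 lie close to the 2-fold line, and it was no longer called when libraries were rescaled. Pam, which amidates the PYY carboxyl end, was not apart, with log2 ratios of 0.74, 0.90, 0.74 and 0.75 in the order of libraries above. Of 9 genes for PYY receptors and processing 2 were considered, and of 9 nutrient sensors of L cells 2, and none of these was apart.

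Ghrl and Ddc went the other way. Ghrl, the ghrelin gene, was at 3.24 against 30.9 CPM in vehicle and 9.79 against 32.7 CPM in tamoxifen-labelled tumours after depletion. After thinning, a Ghrl UMI was seen in 1.09% of Pyy cells and 8.81% of Pyy-negative cells. Ddc, an enzyme of amine synthesis, had log2 ratios of -1.83 and -2.44 after depletion. Dpp4, the protease that trims PYY, was at 51.8 against 154 CPM in vehicle and at 103 against 202 CPM in tamoxifen-labelled tumours after depletion, just short of 2-fold in the second. Npy, a relative of Pyy, had 35 UMIs in 1 of the 4 vehicle cells before depletion and 0 in the 26 after it. In the 143 tamoxifen-labelled cells it had 31 UMIs, 80.6% of them from 1 cell. Tph1, the serotonin-synthesis enzyme of gut endocrine cells, was at 18.7 against 0.857 CPM in the tamoxifen-labelled library after depletion, below the 20 CPM minimum, with 16 of 143 cells holding a UMI.

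**Figure D2:**
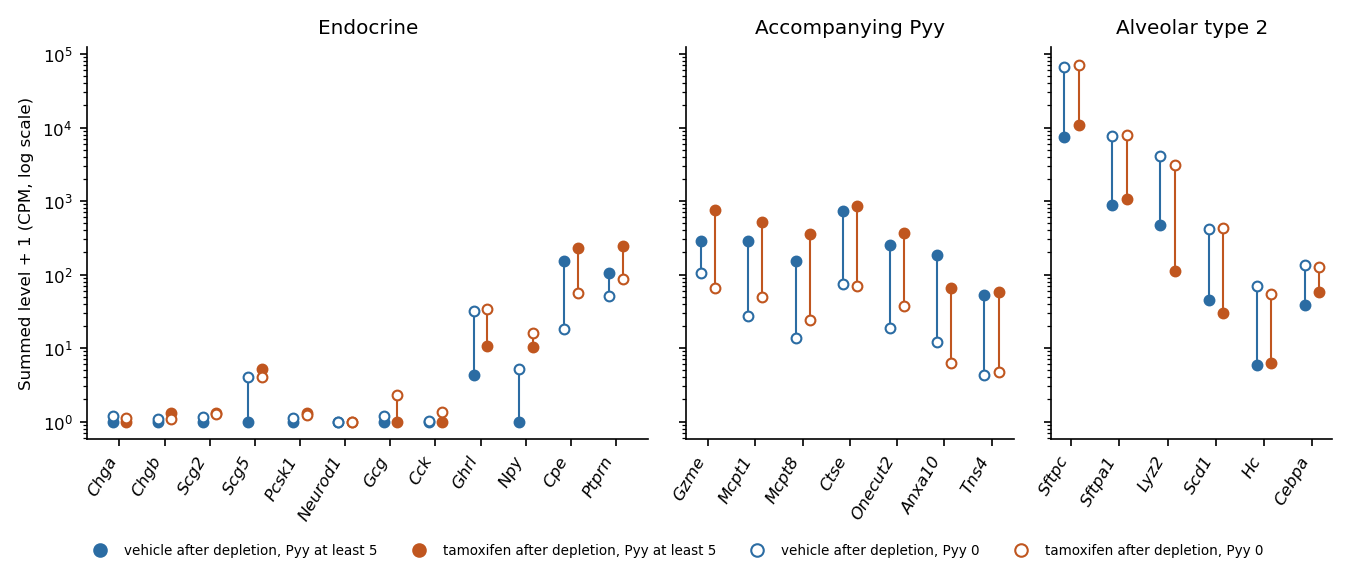
Summed level plus 1 CPM on a log scale in Pyy cells (filled) and Pyy-negative cells (open) of the libraries after depletion, for genes of endocrine cells, genes accompanying Pyy and genes of alveolar type 2 cells. Chga, Neurod1, Gcg and Cck lie at 0 CPM in Pyy cells, while Ctse lies at 733 and 861 CPM.

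Some genes of the stomach epithelium and many of a plastic tumour state were higher in Pyy cells. Of 12 gastric genes, counted without Cldn18, which the gate used, 5 were considered and 3 were higher (Anxa10, Ctse and Onecut2). The others were not apart: Gkn2, a gastrokine, was at 688 against 2317 CPM in vehicle and 1566 against 2050 CPM in tamoxifen-labelled tumours after depletion, and Tff1 at 21 against 55.4 CPM and 509 against 48.1 CPM. The median log2 ratio over the 5 was 3.31 in vehicle and 3.36 in tamoxifen-labelled tumours. Summed, the 12 were at 1528, 1875, 1755 and 3447 CPM in Pyy cells of the 4 libraries against 1554, 2496, 2262 and 2266 CPM in Pyy-negative cells, so the sum was lower in Pyy cells of 3 libraries. Of 14 plasticity genes, also counted without a gene of the gate, 13 were considered, 8 were higher (among them Cldn4, Hmga2, Itga2, Krt19, Krt7, Slc4a11 and Tnfrsf12a) and none was lower, with median log2 ratios of 1.05 and 1.49. Krt19 was below the 2-fold line with other scalings and with a rule of 3 Pyy UMIs. Beside these counts, 4.37% of all genes considered were higher and 4.75% lower.

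Ctse, the aspartic protease cathepsin E of gastric surface cells, was in most Pyy cells. It stood at 1064, 733, 620 and 861 CPM in Pyy cells of the 4 libraries, and at 48.1, 73.1, 58.9 and 68.4 CPM in Pyy-negative cells. The Pyy cells were above in each library and spanned less than a 2-fold range between libraries. After thinning it was seen in 76.9% of Pyy cells and 14.6% of Pyy-negative cells in vehicle, and in 80.7% and 13.2% in tamoxifen-labelled tumours after depletion. It ranked first by this difference in share, ahead of Onecut2, Tnfaip8, Itga2 and Tpm2. Likeness was ranked by the smaller of the 2 libraries' differences.

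Onecut2, a homeobox transcription factor of endoderm, was the only transcription factor among the 15 genes with the largest ratios. It stood at 445, 248, 108 and 363 CPM in Pyy cells against 17.1, 17.5, 22.8 and 36.5 CPM in Pyy-negative cells. After thinning, 61.5% of Pyy cells in vehicle and 67.9% in tamoxifen-labelled tumours after depletion held a UMI, against 3.65% and 6.30%. Itga2, an integrin subunit for collagen, was at 809 against 215 CPM in vehicle and 581 against 144 CPM in tamoxifen-labelled tumours after depletion. Krt7, a keratin of simple ducts, was at 1618 against 571 CPM and 1805 against 450 CPM.

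The 15 genes with the largest smaller log2 ratio were Tns4, Mcpt8, Mcpt1, Anxa10, Ctse, Onecut2, Csgalnact1, Cwh43, Nrk, Ccn2, Aldh1a3, Slc4a11, Igfbp3, Igfbp4 and Tnnt2. Tns4, a focal adhesion protein, was the first of them, with log2 ratios of 3.60 and 3.65 from 51.8 and 57.5 CPM in Pyy cells. Its ratios before depletion were 3.55 and 3.76. Aldh1a3, which makes retinoic acid, was at 238 against 38.7 CPM and 177 against 27 CPM. Ccn2, a secreted matrix protein, was at 372 against 38.4 CPM and 226 against 36.6 CPM. Igfbp3 and Igfbp4, which bind insulin-like growth factors, reached log2 ratios of 2.56 and 2.56 in vehicle and 3.17 and 3.26 in tamoxifen-labelled tumours after depletion. Anxa10, a gastric annexin, had no UMI in the 4 vehicle cells before depletion. Its 114 UMIs in vehicle after depletion sat in 8 of 26 cells. Fn1, fibronectin, was at 2160 against 246 CPM and 1168 against 253 CPM, and with Itgb6 was 1 of 2 higher genes among 12 of epithelial-mesenchymal transition.

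**Figure D3:**
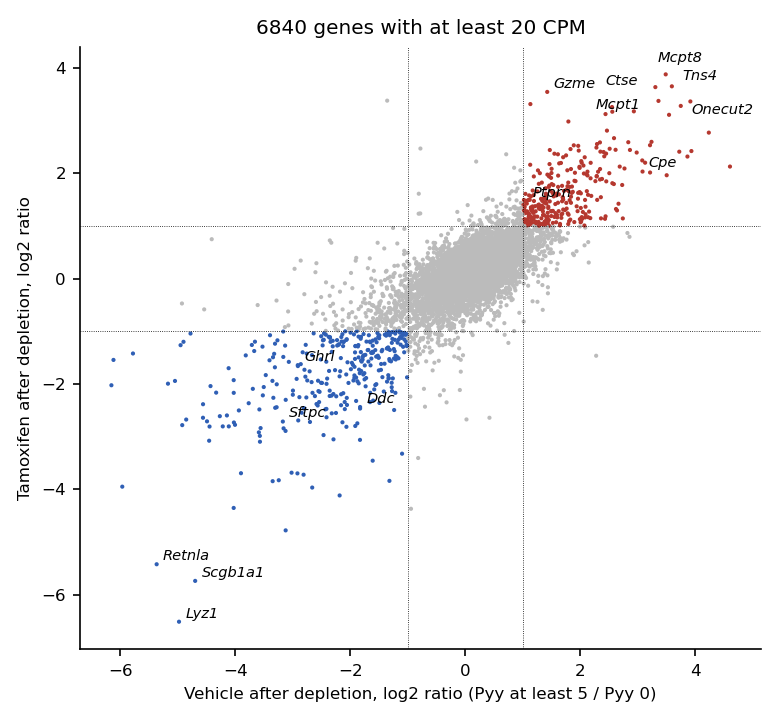
Each point is 1 of 6840 genes, placed by its log2 ratio between Pyy and Pyy-negative cells in vehicle (x axis) and tamoxifen-labelled (y axis) tumours after depletion. Red marks the 299 genes at least 2-fold higher and blue the 325 at least 2-fold lower in both, with dotted lines at 2-fold.

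Gzme was higher in Pyy cells than in Pyy-negative cells of all 4 libraries. It stood at 1322, 285, 443 and 762 CPM in Pyy cells against 73.2, 105, 40.9 and 64.4 CPM in Pyy-negative cells, giving log2 ratios of 4.16, 1.43, 3.40 and 3.54. The vehicle library after depletion had the smallest ratio. After thinning, a Gzme UMI was seen in 50% of Pyy cells and 12.6% of Pyy-negative cells there, and in 52.1% and 7.36% in tamoxifen-labelled tumours after depletion. Without thinning, 73.1% and 74.1% of Pyy cells held one. A Gzme UMI was therefore not seen in every Pyy cell, a share that rose with depth. Few cells with at least 5 Gzme UMIs were Pyy cells. Of 613 epithelial cells with at least 5 Gzme UMIs in vehicle after depletion 11 were Pyy cells (1.79%), and of 416 in tamoxifen-labelled tumours 70 were (16.8%).

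Of 15 granzyme, mast cell protease, chymase and cathepsin G genes between 55941451 and 56262260 on chromosome 14, 4 were higher in Pyy cells: Gzme, Mcpt1, Mcpt2 and Mcpt8. The other 11 reached at most 2.08 CPM in Pyy cells of either library after depletion. Mcpt1 was at 283 against 26.6 CPM in vehicle and 516 against 48.9 CPM in tamoxifen-labelled tumours after depletion. Mcpt8, otherwise a basophil protease, was at 152 against 12.6 CPM and 352 against 23.0 CPM. In the vehicle library 1 cell held 69.7% of the 175 Mcpt1 UMIs and 1 cell 51.1% of the 94 Mcpt8 UMIs. Before depletion Mcpt1 was at 18.8 against 13.6 CPM in vehicle, and Mcpt2 had a log2 ratio of -1.23 in tamoxifen-labelled tumours, so the order of these genes differed between libraries. Mcpt2 was not called with TMM scaling, nor with a rule of 3 Pyy UMIs. These genes are close paralogues, and how the authors' counting split reads between them is not given in the sources used here.

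Markers of the cells that usually express these proteases were at or near 0. Of 6 mast cell and basophil markers, Mcpt8 made up all but 7 of the UMIs in Pyy cells, and Cpa3, Ms4a2, Fcer1a and Mcpt4 had none in any of them. The 10 T and NK cell markers summed to 4.15 to 5.69 CPM in Pyy cells and 2.14 to 6.85 CPM in Pyy-negative cells, with Cd3d, Cd3g, Cd8a, Ncr1, Klrb1c and Klrd1 at 0 in Pyy cells. Gzma, Gzmb and Prf1 also had no UMI in a Pyy cell. In both libraries after depletion the T and NK sum was higher in Pyy cells, at 4.85 against 3.37 CPM (vehicle) and 4.15 against 2.14 CPM. Before depletion it was at 4.69 against 6.85 CPM and 5.69 against 5.05 CPM. After depletion Trac was at 4.85 against 0.916 CPM (3 UMIs in Pyy cells) and 1.78 against 0.508 CPM (6 UMIs). Cd4 was at 0 against 2.39 CPM and 2.37 against 1.59 CPM. Summed markers were at 0 to 16.2 CPM for endothelium, 4.69 to 27 CPM for fibroblasts, 25.9 to 56.3 CPM for macrophages and 0 to 39.8 CPM for neutrophils in Pyy cells. In Pyy-negative cells they were at 32.4 to 45 CPM, 19.7 to 56.8 CPM, 12.6 to 205 CPM and 4.19 to 25.8 CPM. Summed macrophage markers were higher in Pyy cells of both libraries after depletion, at 25.9 against 15.3 CPM and 31.4 against 12.6 CPM. Of these sums Mrc1 made up 16.2 and 24.3 CPM in Pyy cells and 6.97 and 4.24 CPM in Pyy-negative cells. Cd68 was lower in Pyy cells of both, at 3.24 against 5.41 CPM and 4.74 against 5.81 CPM. Csf1r was higher in vehicle, at 6.47 against 2.55 CPM, and lower in tamoxifen-labelled tumours, at 1.78 against 2.25 CPM. Neutrophil markers were higher in tamoxifen-labelled tumours before depletion, at 39.8 against 23.2 CPM. The part of these markers in the results was not tested. In endothelial-type cells of the same libraries Gzme was at 0 to 2.83 CPM. Of the 21 genes annotated within 200 kb of Pyy on chromosome 11, 4 were considered and none was apart. Over all genes considered 4.37% were higher and 4.75% lower, so 4 genes are too few to tell them from other genes. Ppy, the neighbouring family member, had no UMI.

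Alveolar identity was low in Pyy cells. All 15 alveolar type 2 genes were considered, 14 were lower and none higher, with median log2 ratios of -3.12 in vehicle and -2.61 in tamoxifen-labelled tumours. Summed over Pyy cells Sftpc, surfactant protein C, was at 159, 7428, 12140 and 10855 CPM, against 65339, 66902, 67989 and 71274 CPM in Pyy-negative cells. Single cells carried much of the remainder, 64.2% of it from 1 cell in vehicle after depletion. The median Pyy cell had 165, 985, 213 and 894 CPM of Sftpc. Endothelial-type cells, which do not make surfactant, held 217, 1480, 240 and 1424 CPM in the same libraries. In UMIs, the median Pyy cell held 7.5, 17.5, 13 and 17 of Sftpc, the median endothelial-type cell 2, 13, 2 and 10 and the median Pyy-negative cell 1240, 1040, 1438.5 and 1103. The median Pyy cell was thus above the endothelial-type cells in UMIs and below them in CPM, at a greater depth, and what free RNA adds to it was not tested.

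Other lung lineage genes were lower in the same cells. The 10 lowest genes by the rule were Retnla, Lyz1, Scgb1a1, Cbr2, Scgb3a2, Pde1c, Aox3, Scd1, Lyz2 and Hc. Scd1, a lipid desaturase needed for surfactant, was at 43.7 against 422 CPM in vehicle and 29.1 against 426 CPM in tamoxifen-labelled tumours after depletion. The 3 club cell genes considered (Scgb1a1, Scgb3a2 and Cbr2) were all lower. Cebpa and Etv5, regulators of alveolar type 2 cells, were lower, Cebpa at 37.2 against 134 CPM and 56.6 against 126 CPM. Nkx2-1, the master regulator of lung epithelium, had log2 ratios of -0.91 and -0.76 after depletion and was not apart. Of 10 alveolar type 1 genes, Cav1 was higher and Ager lower. Of 15 intestinal genes 3 were considered, and Agr2 and Apoa1 were lower and none higher. Krt20, an intestinal keratin below the 20 CPM minimum in tamoxifen-labelled tumours, was at 100.3 against 6.58 CPM in vehicle and 12.5 against 1.39 CPM in tamoxifen-labelled tumours after depletion.

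Hnf4a, a regulator of gut and liver epithelium and the gene the tamoxifen was meant to remove, was near the 2-fold line in Pyy cells of both arms. It stood at 122, 108, 158 and 157 CPM in Pyy cells against 51.9, 54.3, 79.8 and 79.0 CPM in Pyy-negative cells. The log2 ratios were 1.22, 0.98, 0.98 and 0.98, just short of the call in 3 libraries. It crossed the line under 4 of the alternatives tried, with a mean log2 ratio of 1.07 after depletion when the 5 cells with most Pyy were left out of each library. Whether these transcripts are intact was not tested.

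Across Pyy levels, accompanying genes were already higher in cells with 1 to 4 Pyy UMIs. In tamoxifen-labelled tumours after depletion, Ctse went from 68.4 CPM without Pyy to 238 CPM at 1 to 4 UMIs, 777 CPM at 5 to 9, 603 CPM at 10 to 49 and 1231 CPM at 50 or more. Gzme went through 64.4, 219, 869, 505 and 1021 CPM, and Onecut2 through 36.5, 129, 262, 412 and 360 CPM. The steps above 5 Pyy UMIs were not all in one direction. Cpe was at 388 CPM in the 44 cells with 50 or more Pyy UMIs and at 137 CPM at 10 to 49. In vehicle after depletion the same class was 5 cells with 0 Cpe UMIs, so the step was not seen there. Sftpc was at 71274 CPM without Pyy, 48278 CPM at 1 to 4 UMIs, 8628 CPM at 5 to 9, 12674 CPM at 10 to 49 and 9856 CPM at 50 or more. In vehicle after depletion it was at 66902, 21714, 1536, 3985 and 25052 CPM in the same classes. In the last of these, 1 of the 5 cells held 2947 of the 3048 Sftpc UMIs. The cells with 1 to 4 UMIs, 49 in vehicle and 212 in tamoxifen-labelled tumours after depletion, can hold free Pyy RNA as well as cells making little of it.

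**Figure D4:**
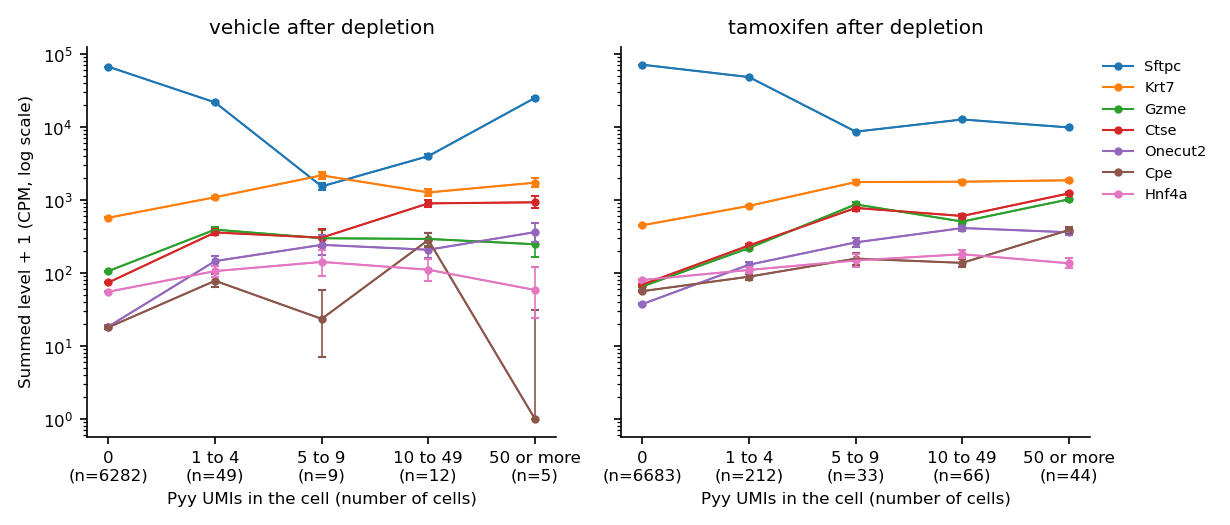
Summed level plus 1 CPM on a log scale against the Pyy UMIs of the cells, in classes with the number of cells, for vehicle (left) and tamoxifen-labelled (right) tumours after depletion. Bars are exact 95% Poisson intervals of the counts, and in the right panel Ctse goes from 68.4 to 1231 CPM.

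Pyy cells lay near each other in expression space, mixed with other cells. Neighbours were taken among epithelial cells of the same library in 30 principal components computed without Pyy. Of the 15 nearest cells of a Pyy cell, 9.23% were Pyy cells in vehicle and 30.9% in tamoxifen-labelled tumours after depletion, where 0.409% and 2.03% of all epithelial cells were. Before depletion the values were 6.67% and 19.5%. In tamoxifen-labelled tumours after depletion the median Pyy cell had 4 Pyy cells among its 15 neighbours and the highest had 14, and 39.9% of neighbours held a Pyy UMI. In vehicle after depletion the median was 1 and the highest 5. On average most neighbours were not Pyy cells in any library.

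Most neighbours of Pyy cells were in a Krt7-high, Sftpc-low state that held many more cells. Cells with at least 500 CPM of Krt7 and at most 5000 CPM of Sftpc, cuts chosen after seeing the data, made up 12% and 13.4% of vehicle epithelium before and after depletion, and 10.5% and 12% of tamoxifen-labelled epithelium. Of the 15 nearest cells of each Pyy cell, 93.3%, 82.1%, 74.9% and 74.9% lay in this state in the order of libraries above. Of the nearest cells without Pyy, 89.7%, 74.1%, 49.4% and 49.6% did. The state held 75%, 84.6%, 76.9% and 76.2% of the Pyy cells in the order of libraries above. Of the cells in the state, 3 of 105 were Pyy cells in vehicle before depletion (2.86%) and 22 of 849 after it, or 2.59% (1.63 to 3.90). In tamoxifen-labelled tumours 10 of 97 before depletion (10.3%) and 109 of 845 after it, or 12.9% (10.7 to 15.3), were Pyy cells. The state was therefore about as frequent in both arms, and a larger share of it held Pyy in the tamoxifen-labelled arm. The median UMIs of its Pyy-negative cells, 19994 in vehicle and 15935 in tamoxifen-labelled tumours after depletion, were lower where the Pyy share was higher.

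**Figure D5:**
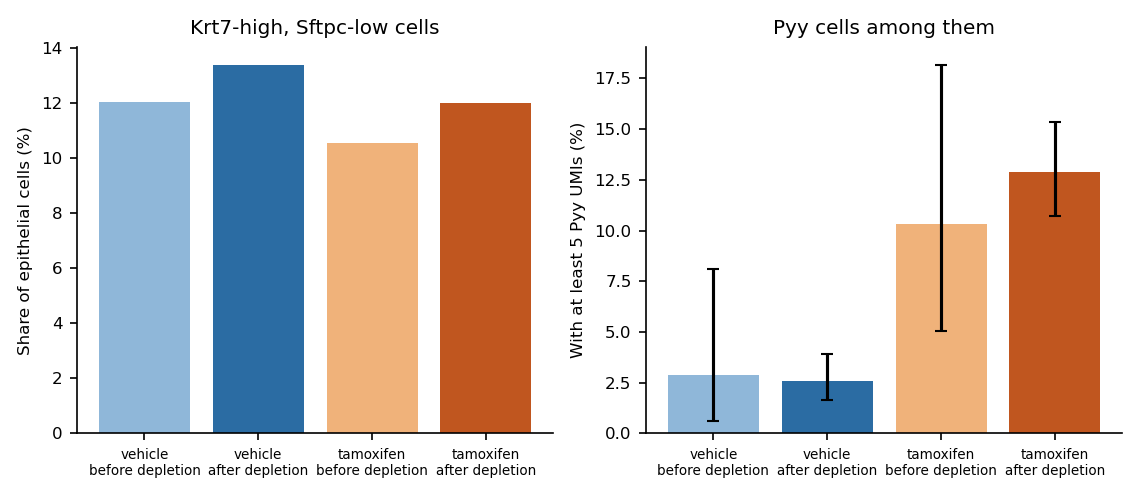
Left, percent of epithelial cells in the Krt7-high, Sftpc-low state by library. Right, percent of these cells with at least 5 Pyy UMIs, with exact 95% counting intervals. The state makes up 10.5% to 13.4% of epithelium, and Pyy cells are 2.59% of it in vehicle and 12.9% in tamoxifen-labelled tumours after depletion.

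Set against Pyy-negative cells of this state, little was left apart. Of 6688 genes considered, 9 were higher in Pyy cells of both libraries after depletion (0.135%) and 54 lower (0.807%). The 9 were Shisa6, Grip1, Ctse, Krt17, Mcpt8, Scn8a, Prrx2, Onecut2 and Echdc2. Before depletion Krt17 had no UMI in Pyy cells of the state, against 41.4 CPM in vehicle and 10.3 CPM in tamoxifen-labelled tumours. Ctse was at 752 against 279 CPM in vehicle and 982 against 340 CPM in tamoxifen-labelled tumours, and Onecut2 at 249 against 89.0 CPM and 419 against 201 CPM. Shisa6 and Grip1, which act at glutamate receptors in neurons, were at 81.7 against 7.65 CPM and 69.5 against 14.3 CPM in vehicle, and at 49.7 against 16.1 CPM and 45.2 against 15.8 CPM in tamoxifen-labelled tumours. Gzme was at 325 against 240 CPM in vehicle and 871 against 161 CPM in tamoxifen-labelled tumours, so after depletion its ratio passed 2-fold in the second only. Before depletion it passed in both, at 807 against 274 CPM in vehicle and 581 against 138 CPM in tamoxifen-labelled tumours, and differences between arms were not tested. Cpe and Ptprn were not apart within the state, with log2 ratios after depletion of -0.04 and 0.69 for Cpe and -0.12 and 0.37 for Ptprn. Before depletion Cpe was at 7.21 against 74.6 CPM in vehicle and 317 against 62.6 CPM in tamoxifen-labelled tumours. Ptprn was then at 288 against 141 CPM and 143 against 177 CPM. Among plasticity genes, Cldn4, Itga2, Krt19, Slc4a11 and Hmga2 were not apart within the state. Log2 ratios after depletion were 0.22 and -0.01 for Cldn4, 0.13 and -0.06 for Itga2, and 0.07 and 0.09 for Krt19. Slc4a11 had 0.96 and 0.50, and Hmga2 0.51 and -1.08. Npy was lower after depletion, at 0 against 28.3 CPM in vehicle and 12.6 against 69.0 CPM in tamoxifen-labelled tumours. Before depletion Npy was at 0 against 0.311 CPM in vehicle and 13.2 against 8.40 CPM in tamoxifen-labelled tumours, the latter in the other direction.

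With the Pyy-negative nearest cells as the comparison, also chosen after seeing the data, 6 of 6511 genes were higher (0.0922%) and 11 lower (0.169%). These cells were picked as nearest by expression itself, with only Pyy left out. Small counts were thus partly set by that choice, and no conclusion is drawn from them. The 6 were Grip1, Shisa6, Mcpt8, Lmcd1, Mcpt1 and Proc, so Grip1, Shisa6 and Mcpt8 were higher in both of these comparisons after depletion. In vehicle before depletion their log2 ratios against the nearest cells were 1.07, 4.10 and 3.37, and within the state 1.58, 3.86 and 3.67. In tamoxifen-labelled tumours before depletion none of them reached 2-fold. The ratios there were 0.44, -0.29 and 0.77 against the nearest cells and 0.39, 0.46 and 0.88 within the state. None of the 76 endocrine genes was called higher in either comparison, by the libraries after depletion. For the nearest cells this has the same limit. Before depletion Cpe was above the nearest cells, at 399 against 169 CPM in vehicle and 236 against 35.1 CPM in tamoxifen-labelled tumours. A combination of Ctse (at least 5 UMIs), Onecut2 and Gzme (at least 1 each) picked out 124 epithelial cells in vehicle after depletion, of which 12 were Pyy cells (9.68%). It picked out 252 in tamoxifen-labelled tumours, of which 82 were (32.5%).

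Between arms, Pyy cells after depletion differed more than Pyy-negative cells did. Tamoxifen-labelled Pyy cells had 376 of 7275 genes at 2-fold or more above vehicle Pyy cells (5.17%) and 315 as far below (4.33%). Among Pyy-negative cells 31 of 6843 were higher (0.453%) and 69 lower (1.01%). The vehicle side of the first comparison rests on 26 cells and 618061 UMIs, against 143 cells and 3372380 UMIs, and what this difference in cell number adds was not tested. Ctse (733 and 861 CPM) and Onecut2 (248 and 363 CPM) were not apart between arms. Gzme was higher in tamoxifen-labelled Pyy cells, 762 against 285 CPM, while in Pyy-negative cells it was 64.4 against 105 CPM. Before depletion the direction in Pyy cells was the opposite, with Gzme at 443 CPM in 13 tamoxifen-labelled cells and 1322 CPM in 4 vehicle cells, 60.3% of the latter from 1 cell. Onecut2 was then at 108 and 445 CPM.

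Gastric Tff1, a secreted trefoil peptide, was at 21 CPM in vehicle and 509 CPM in tamoxifen-labelled Pyy cells, where 28 of 143 cells held its UMIs. Gkn1, a gastrokine, had no UMI in the vehicle cells and was in 36 tamoxifen-labelled cells at 40.6 CPM. Going the other way, Nrk, a kinase gene, was at 618 CPM in vehicle and 66.7 CPM in tamoxifen-labelled Pyy cells after depletion. Before depletion it was at 46.9 CPM (10 UMIs) in vehicle and 81.1 CPM (57 UMIs) in tamoxifen-labelled Pyy cells, the opposite order. Hmga2, a chromatin protein of embryonic and advanced tumour cells, was at 396 and 84.2 CPM, and Krt20 at 100.3 and 12.5 CPM. Before depletion these were at 352 and 109.6 CPM for Hmga2, the former from 1 cell, and at 65.6 and 4.27 CPM for Krt20. In Pyy-negative cells Nrk was at 31.8 and 8.93 CPM, and Hmga2 at 62.7 and 33.8 CPM, in the same direction. Tff1 there was at 55.4 and 48.1 CPM. With 1 suspension per arm, mouse, tumour and treatment cannot be told apart.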

How the data were processed

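Single-cell 3′ libraries of mouse lung tumours were deposited by the authors as UMI count matrices, 1 per library. Cell Ranger 7.0.1 made them per the file headers, and Cell Ranger 7.2.0 with mm10 is named per the submitters' processing notes. The deposited counts are raw UMI counts per gene, with 32289 features, and 32158 feature identifiers matched GENCODE M21. Computed here: the cell filters and gates given in the report, sums of UMIs per library over Pyy cells and over Pyy-negative cells, and CPM from those sums. Size was judged in libraries with at least 20 Pyy cells, by at least 20 CPM in either kind of cell and a log2 ratio of at least 1 in size with 1 sign, at a pseudocount of 1 CPM. With 1 library per group no test across samples exists. Cells were not treated as replicates. Intervals are exact Clopper-Pearson or Poisson (95%) and cover counting error. Floors are 3 counts. Shares were also taken after thinning cells to 5000 UMIs, which left out 59, 310, 37 and 305 epithelial cells of the 4 libraries, 3 of them Pyy cells. Scrublet (scanpy 1.11.5) scored doublets. Its automatic threshold marked 178 barcodes in 1 library and 0 in the others, so a score of 0.25 was used. No doublets were removed in the values reported. Neighbours used 2000 variable genes without Pyy. edgeR 4.0.16 gave TMM factors, and numpy 2.4.6 and scipy 1.17.1 the rest. The size rule was tested on simulated data. Alternatives changed the Pyy threshold, gates, thinning, scaling, pseudocount, minimum level, fold and libraries.

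The Pyy cells, gene lists and rules were chosen with earlier results of these data known. Genes named are Pyy and Gzme, the 15 highest and 10 lowest genes by the smaller of the libraries' log2 ratios (without mitochondrial, ribosomal, immunoglobulin and sex-linked genes and unnamed models), members of the lists, and the 5 most like Pyy in thinned share. Shisa6, Grip1, Krt17, Scn8a, Prrx2, Echdc2, Lmcd1 and Proc fall outside that rule and were named after their values were seen. Some genes and alleles are not reported here.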

Additional observations from a re-analysis of the deposited data

Results flagged for a closer look

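For 4 genes of the lists the ratio between Pyy and Pyy-negative cells had one sign in both vehicle libraries and the other in both tamoxifen-labelled libraries. This difference between arms was not tested, and none of the 4 was apart. The difference of the log2 ratios after depletion, tamoxifen-labelled minus vehicle, was -1.22 for Sox9, a transcription factor of lung progenitors, which was higher in vehicle (1.5 and 0.83) and lower in tamoxifen-labelled tumours (-0.55 and -0.39). It was 0.72 for Ccnd1, the cyclin D1 gene, 0.55 for Afp and 0.28 for Mcm7.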

How the results depend on the processing

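No paired analysis was possible because the labels give 1 library per group and no replicate numbers that pair cells. For the genes higher and lower in Pyy cells (299 and 325), the counts were 479 higher with at least 10 Pyy UMIs, where vehicle after depletion keeps 17 cells and only 1 library counts. They were 559 and 569 with no UMI of any other cell type's marker, which leaves 6 and 37 Pyy cells after depletion, 484 and 843 with no minimum level, 189 and 201 with a minimum of 50 CPM, and 46 and 86 at 4-fold. Leaving out each library gave 299 to 688 higher and 325 to 647 lower. Leaving out a library before depletion could not change these counts, since the size rule used only the libraries after depletion. The low ends are therefore the main counts, and the same holds for the endocrine ranges below. Without vehicle after depletion the counts were 477 and 443, and without tamoxifen-labelled after depletion 688 and 647, as fewer libraries must agree. TMM scaling gave 215 and 398, and median-of-ratios 234 and 378, moving the median of all genes from 0.12 and 0.14 to -0.06 and 0.01 with TMM. Against Pyy-negative nearest cells they were 6 and 11, and within the Krt7-high, Sftpc-low state 9 and 54, both chosen after seeing the data. The nearest cells were picked by expression, which itself keeps such counts small. Endocrine genes higher (2 of 76) were 4 with at least 10 Pyy UMIs, 5 with no minimum level, 1 at 4-fold and under both scalings, and 0 in both added comparisons, and 2 to 3 with each library left out. Endocrine genes lower (2) were 4 with at least 10 Pyy UMIs and with no minimum level, 0 at 50 CPM, 4-fold and the nearest cells, 1 within the state, and 2 to 4 with each library left out. Shares of Pyy cells became 1.56% in tamoxifen-labelled tumours after depletion with at least 10 UMIs, and 1.63% there and 0% before depletion (0 of 46) with no other marker. Thinned to 2000 UMIs with at least 2 Pyy UMIs they were 1.32%, 0.651% and 0.236% in tamoxifen-labelled after, tamoxifen-labelled before and vehicle after depletion, and 2.58% in the first at 10000. Gzme was seen in 38.5%, 63.7% and 74.1% of tamoxifen-labelled Pyy cells after depletion at 2000, 10000 and no thinning, and in 26.9% of vehicle cells at 2000 and 73.1% without thinning. Neighbours that were Pyy cells were 33.0% among 5 and 26.8% among 50 in tamoxifen-labelled, and 13.1% among 5 in vehicle tumours. Genes higher and lower in tamoxifen-labelled Pyy cells (376 and 315) were 2144 and 1601 with no minimum, 137 and 175 at 50 CPM, and 78 and 70 at 4-fold. That comparison could not be made with at least 10 Pyy UMIs. For 44 genes there were 924 pairs of a gene and a planned setting, and 880 pairs kept the call and direction. The call was lost in 32 pairs and gained in 11, and 1 reversed: Ghrl at 0.32 with no other marker. Pairs that left out a library before depletion could not change and are counted among the 880. Against the nearest cells Aldh1a3 (-0.047), Lyz2 (0.06), Ptprn (-0.10) and Retnla (0.47) changed sign, with none of these 4 called there. The causes were not tested. Depth limits what 0 UMIs show: 0 of 186 cells bounds cells with a UMI, not cells expressing a gene.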

Other observations

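No cell cycle or stress gene of the lists was apart by the size rule, which could call few of the cell cycle genes. Of 15 G2/M genes 2 were considered. Before depletion the 15 summed to 70.3 against 253 CPM in vehicle and 32.7 against 290 CPM in tamoxifen-labelled tumours. After depletion the sums were 37.2 against 180.2 CPM in vehicle and 174 against 226 CPM in tamoxifen-labelled tumours. The sum was thus lower in Pyy cells of each library. Of 15 S-phase genes 5 were considered and none was apart, at 328 against 318 CPM and 342 against 257 CPM. All 12 immediate early and heat shock genes were considered and none was apart, with median log2 ratios of 0.08 in both libraries after depletion. Of 14 genes read as output of MAPK signalling, Etv5 and Spry1 were lower and none was higher.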
